A study of Mus musculus with 6 samples.

Results

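The genes of the cytosolic and the mitochondrial ribosome were described in brain microglia taken at the disease peak of experimental autoimmune encephalomyelitis (EAE), which models multiple sclerosis in mice. Members were taken by gene symbol from the array annotation: symbols starting with Rpl or Rps followed by a number, Rplp or Rpsa for the cytosolic ribosome, without the Rps6k kinases, and Mrpl or Mrps followed by a number for the mitochondrial ribosome. This gave 145 of the 19505 named genes, each with 1 probe set. The cytosolic class held 69 genes, 42 Rpl (large subunit) and 27 Rps (small subunit), and the mitochondrial class held 76, 48 Mrpl and 28 Mrps. The symbols also took in genes that are not ribosomal proteins, such as Rps19bp1, which encodes a binding partner of Rps19, and Rps23rg1, a gene that arose from a retroposed Rps23 copy. Rplp2, Rpl10 and Rps27 were not analysed here.

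The study compared 3 control samples with 3 samples from conditional knock-out (CKO) mice, all female C57BL/6, on 1 array each. By the labels the knock-out is in B cells, and the title of the series speaks of GM-CSF from B cells. The deleted gene, the Cre driver and the way microglia were isolated were not given in the sources used here. Animals of both groups were immunised with 100 μg of recombinant myelin oligodendrocyte glycoprotein in incomplete Freund's adjuvant and received 300 ng of pertussis toxin on that day and 48 h later. Whether each replicate came from its own animal is not stated, so the p-values speak only of the spread between samples, and that spread may be technical. Values are log2 expression per probe set, from 2.93 to 19.93 over the 6 arrays, and a difference of 1 is a 2-fold difference. With 6 arrays in all, their number limits the precision.

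The arrays differed in ways that touch the results. CKO replicates 2 and 3 had a narrow spread of values, with interquartile ranges over all probe sets of 3.08 and 3.11, where the remaining 4 arrays had 3.66 to 4.00. Microglial markers were present throughout (11 measured, mean level 16.37 to 16.83 in controls and 16.68 to 17.24 in CKO). Of these 11, 8 were higher and 3 lower in CKO. At an unadjusted p under 0.05 (limma) 2 were higher and 0 lower, against 3.55% of all probe sets higher. The mean level of 12 T cell markers was 8.44 to 10.37 in controls and 6.52 to 7.29 in CKO. All 12 were lower at an unadjusted p under 0.05, against 6.35% of all probe sets, a share that also serves for the lists below. The mean level of 9 monocyte markers was 12.66 to 13.33 and 11.17 to 11.93, with all 9 lower and 5 of them at that p. The mean level of 10 astrocyte markers was highest on CKO replicate 1 (12.51) and control replicate 2 (11.12), against 8.49 to 9.11 on the other arrays. On the same arrays 9 oligodendrocyte markers were at 10.18 and 9.65, against 8.16 to 8.57, and 9 neuron markers at 10.37 and 9.40, against 7.77 to 8.83. Of 9 B cell markers, 4 had means below 6, and the list's mean level was 6.85 to 7.69 in controls and 5.68 to 6.58 in CKO. Of these 9, 8 were lower and 1 higher, with 2 lower at an unadjusted p under 0.05 in limma's fit. The 2 were Jchain and Cd22, with log2 differences (CKO minus control) of -4.98 and -2.22.

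Ribosomes are the RNA and protein machines that translate messenger RNA. The cytosolic ribosome makes the proteins encoded in the nucleus, and its protein subunits are made in matching amounts from messenger RNAs that mostly begin with a 5′ terminal oligopyrimidine (TOP) tract, a C at the cap followed by a run of C and T. The mitochondrial ribosome, built from a separate set of nuclear-encoded proteins and mitochondrial RNA, makes the few respiratory chain subunits encoded in mitochondrial DNA. Its messenger RNAs are not counted among the TOP transcripts.

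Start sites are shown for genes that carry the tract, chosen for it, and for genes of both classes that do not, chosen because the results name them. RefSeq promoter windows (build GRCm38.p6) were matched by symbol for 56 of 69 cytosolic and 67 of 76 mitochondrial genes. Each line gives 30 bases, 15 before and 15 from the annotated start, with the tract in capitals where a C at the start is followed by at least 4 bases that are C or T. Rps6, Rps15a, Rpl35, Rpl38, Rps10 and Rpl15 carried it, whereas Rplp0, Rpl5, Rps13, Rps9, Rps23, Mrpl12, Mrpl52 and Mrps36 did not. Rpl11, Rpsa, Rpl22, Rpl39 and Rps4x, also named in the results, did not carry it either.
Rps6 (chr4:86857353-86857382, minus strand): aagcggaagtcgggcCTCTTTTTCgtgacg
Rps15a (chr7:118116133-118116162, minus strand): ctctctttctgccatCTTCCCTCgccggtg
Rpl35 (chr2:39005117-39005146, minus strand): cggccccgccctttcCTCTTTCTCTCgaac
Rpl38 (chr11:114668565-114668594, plus strand): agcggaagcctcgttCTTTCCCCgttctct
Rps10 (chr17:27635230-27635259, minus strand): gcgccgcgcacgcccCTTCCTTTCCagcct
Rpl15 (chr14:18270972-18271001, minus strand): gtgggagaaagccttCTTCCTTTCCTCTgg
Rplp0 (chr5:115559452-115559481, plus strand): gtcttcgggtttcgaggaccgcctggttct
Rpl5 (chr5:107900513-107900542, plus strand): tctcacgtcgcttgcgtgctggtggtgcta
Rps13 (chr7:116334176-116334205, minus strand): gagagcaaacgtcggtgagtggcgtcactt
Rps9 (chr7:3704026-3704055, plus strand): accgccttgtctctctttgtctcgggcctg
Rps23 (chr13:90923107-90923136, plus strand): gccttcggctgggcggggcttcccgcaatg
Mrpl12 (chr11:120484622-120484651, plus strand): agctcgcctcctcccggatagagcgtcgct
Mrpl52 (chr14:54426894-54426923, plus strand): tgccggggccacgcccacttccggttccct
Mrps36 (chr13:100744645-100744674, minus strand): ttatagctcctcagtgacatcacacaggct

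At the annotated start, 13 of the 56 matched cytosolic genes (23.2%) and 0 of the 67 mitochondrial genes had the tract on the transcribed strand, against 3.01% of all 27025 genes in the table. The other 43 matched cytosolic genes lacked it, as the mitochondrial genes did. An annotated start that lies a few bases off hides a tract, so these counts are tied to the annotation. The CCGGAAGT motif of ETS factors, searched on both strands of the 300-base windows, was in 19.6% of cytosolic and 17.9% of mitochondrial genes, against 4.31% of all genes. The palindromic motif of NRF1, a factor known for nuclear-encoded mitochondrial genes, was searched in the same way and was in 10.7% and 19.4%, against 5.19%. These matches are descriptions of the letters in the windows.

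Of 69 cytosolic genes, 65 had lower CKO than control values, with a median log2 difference (CKO minus control) of -1.15 and 45 lower by at least 2-fold. Of 76 mitochondrial genes, 50 were lower and 26 higher, with a median of -0.13 and 1 lower by at least 2-fold. Over all 22206 probe sets the median was 0.06, 44.5% were lower and 4.42% were lower by at least 2-fold. No member passed limma's two-sided test at an adjusted p (Benjamini-Hochberg, all probe sets) under 0.05, where 2 probe sets (0.00901%) did, and the smallest adjusted p of a member was 0.121.

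At an unadjusted p under 0.05, which does not control false discoveries, 52 cytosolic genes (75.4%) were lower and 0 higher, against 6.35% lower and 3.55% higher of all probe sets. These were 31 of 42 Rpl and 21 of 27 Rps genes. The mitochondrial class had 1 gene lower (1.32%) and 1 higher (1.32%), which is under the background in both directions. All 3 CKO arrays lay below all 3 controls for 50 cytosolic genes (72.5%) and for 4 mitochondrial genes (5.26%), against 8.48% of all probe sets. With a mean of 12 or more, the shares were 80.8% of cytosolic genes and 21.4% of all probe sets. With a mean from 8 to 10, they were 5% of mitochondrial genes and 12.5% of all probe sets. All 3 CKO arrays lay above all controls for 0 cytosolic and 6 mitochondrial genes (7.89%), against 5.94%. With a mean from 8 to 10, this held for 4 of 40 mitochondrial genes (10%), against 3.56% of all probe sets at that level.

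**Figure D1:**
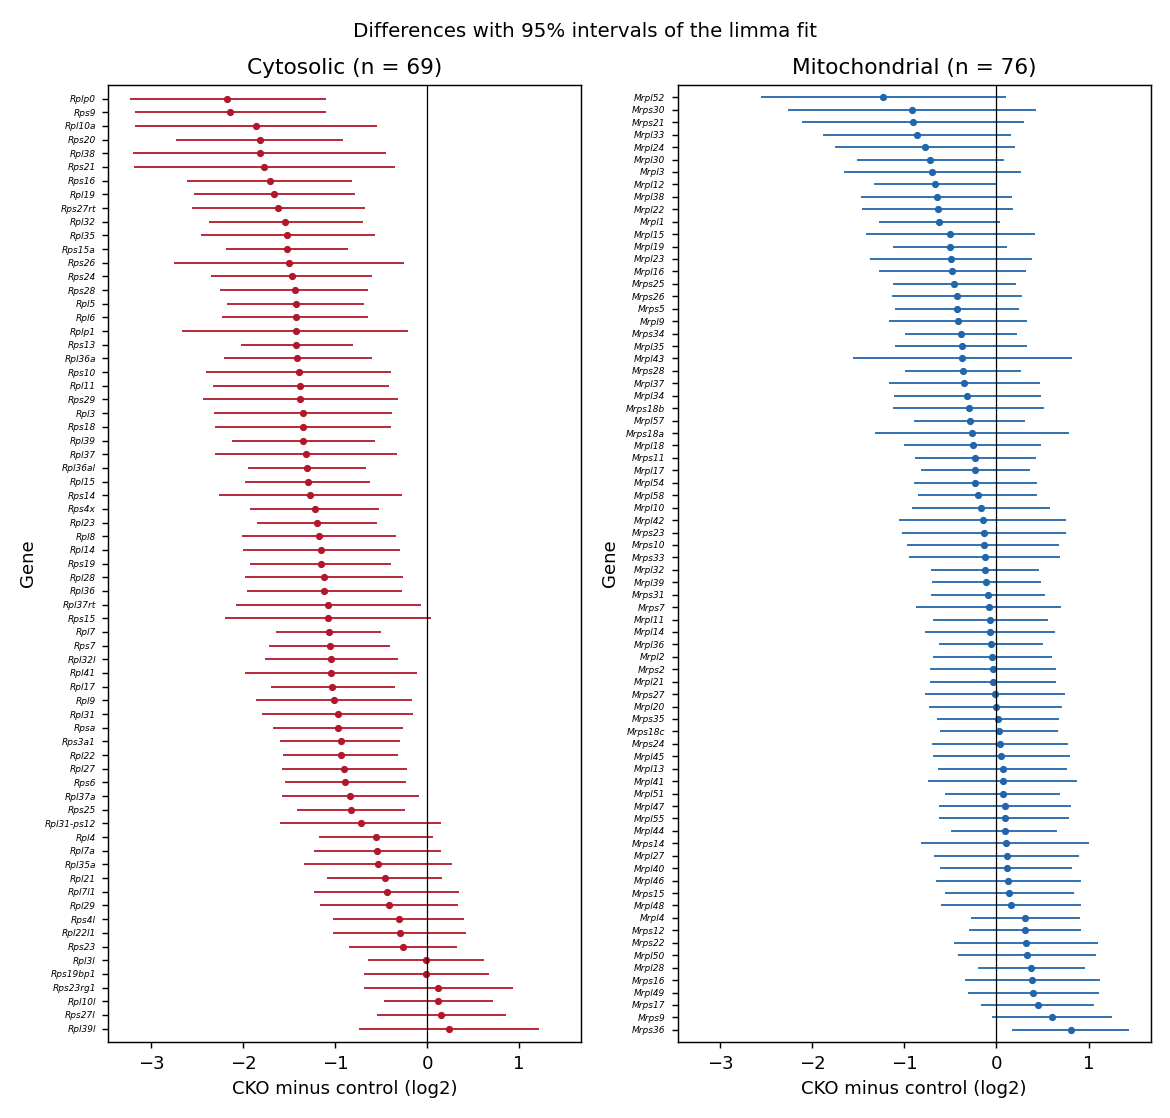
Log2 difference between CKO and control for each cytosolic (left) and mitochondrial (right) gene, ranked, with the point at the estimate and the line as the 95% interval of the limma fit (3 arrays per group). Most cytosolic intervals lie below 0, and nearly all mitochondrial intervals cross it.

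The classes were next set side by side on each array, because of the narrow range on CKO replicates 2 and 3. Each gene's value was expressed as a deviation from its own mean over the 6 arrays, which removes probe affinity. The median deviation of cytosolic genes for the controls (replicates 1, 2, 3) was 0.68, 0.39 and 0.60, and for the CKO arrays, in the same order, -0.01, -0.91 and -0.80. That of mitochondrial genes was 0.13, 0.10 and 0.00 on the controls and 0.19, -0.24 and -0.18 on the CKO arrays. Every control array was above every CKO array for the cytosolic median, whereas mitochondrial medians overlapped between groups, with CKO replicate 1 the highest of the 6.

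The distance between the classes was smaller on the CKO arrays. The median cytosolic value exceeded the median mitochondrial value by 5.98, 5.44 and 6.13 on the controls and by 5.32, 4.62 and 4.63 on the CKO arrays, a distance of 5.85 ± 0.36 (SD, n = 3) and 4.86 ± 0.40. This distance is read only between arrays, since it also holds the probes' own brightness. Divided by each array's interquartile range, it was 1.6, 1.46 and 1.68 on the controls and 1.33, 1.5 and 1.49 on the CKO arrays, and the groups then overlapped. The median rank of cytosolic genes within an array was at the 97.7, 97.2 and 97.7 percentile on the controls and at 96.9, 94.8 and 95.5 on the CKO arrays. That of mitochondrial genes was at 65.5, 65.8 and 63.3 on the controls and at 65, 59.3 and 61.8 on the CKO arrays. Ranks of the cytosolic class did not overlap between groups, and those of the mitochondrial class did.

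**Figure D2:**
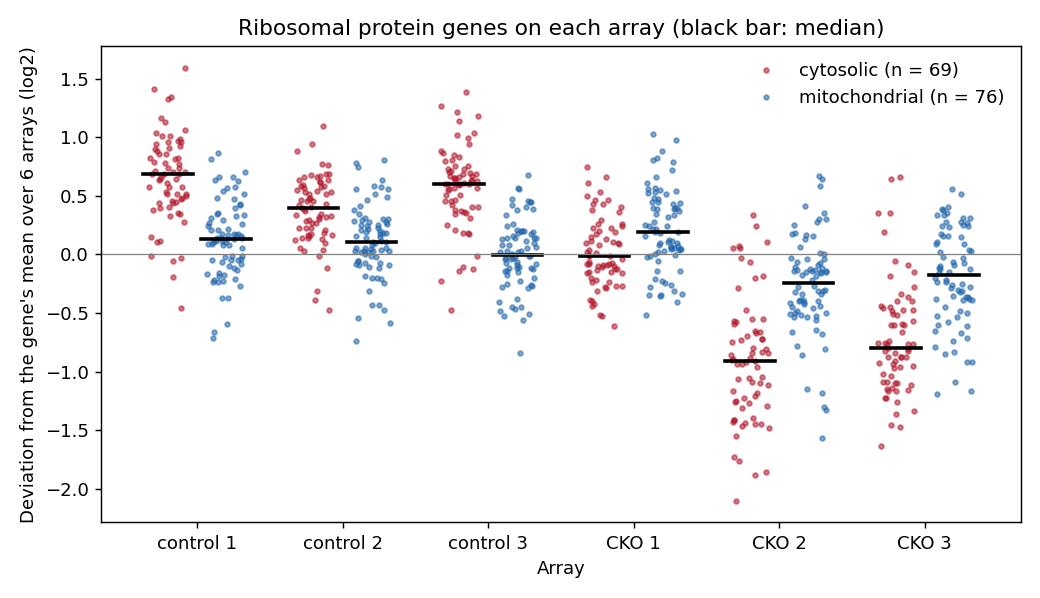
Deviation of each gene from its own mean over the 6 arrays (log2, vertical axis) by array, with cytosolic genes in red and mitochondrial genes in blue and the black bar at the class median. Cytosolic medians run from 0.39 to 0.68 on controls and from -0.91 to -0.01 on CKO arrays, and mitochondrial medians from -0.24 to 0.19 over all arrays.

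CKO replicate 1, whose interquartile range (4.00) was the widest, carried the same direction with a smaller size. Its values lay below all 3 controls for 55 of 69 cytosolic genes (79.7%), against 30.8% of all probe sets and 14 of 76 mitochondrial genes (18.4%). The median difference between this array and the control mean was -0.55 for cytosolic and 0.14 for mitochondrial genes. On CKO replicates 2 and 3 together the medians were -1.49 and -0.20, and 59 cytosolic genes (85.5%) lay below all controls on both arrays, against 21.3% of all probe sets. So did 29 of 76 mitochondrial genes (38.2%). With a mean from 8 to 10, 35% of mitochondrial genes and 36% of all probe sets did. Among probe sets with a mean of 12 or more, 44.6% did, as did 50 of the 52 cytosolic genes at that level (96.2%). CKO replicate 1 also had the highest astrocyte, oligodendrocyte and neuron markers, and control replicate 2, the next highest in all of these lists, had the lowest cytosolic median among controls. The mean levels of T cell, monocyte and B cell markers were lower on all 3 CKO arrays than on every control array. Their median differences from the control mean were -3.16, -1.74 and -1.12 on CKO replicate 1. On CKO replicates 2 and 3 they were -2.51, -1.47 and -0.41, an order of arrays opposite to that of the cytosolic genes. The part of any of these cell types in the ribosomal result was not tested, and fewer cells of a type cannot be told apart from less RNA per cell in bulk samples.

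Level was examined because the cytosolic genes are among the brightest on the array and the mitochondrial genes are not. Means over the 6 arrays ran from 4.06 to 18.43 (median 13.62) for cytosolic and from 5.12 to 10.98 (median 8.35) for mitochondrial genes. Of all 1708 probe sets with a mean of 12 or more, 18% were lower at an unadjusted p under 0.05, and their median difference was -0.17. The 52 cytosolic genes in that range were all lower, 44 of them at that p, with a median of -1.25. Of the 17 cytosolic genes with a mean below 12, 8 were lower at that p, with a median of -0.44. Across the 69 cytosolic genes the difference tracked the mean level weakly (Pearson's r = -0.419, Spearman's rho = -0.145), and across the 76 mitochondrial genes r was 0.0571. Brighter probe sets also tended to be lower across all 22206 (r = -0.278, rho = -0.306). Across the 1708 with a mean of 12 or more this was not seen (r = 0.0712, rho = 0.0471). Of the 40 mitochondrial genes with a mean from 8 to 10, 28 were lower, with a median of -0.17, and of all 4545 probe sets at that level 2673 were lower, with a median of -0.11. Genes are not independent replicates, and all points share the same 6 arrays.

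**Figure D3:**
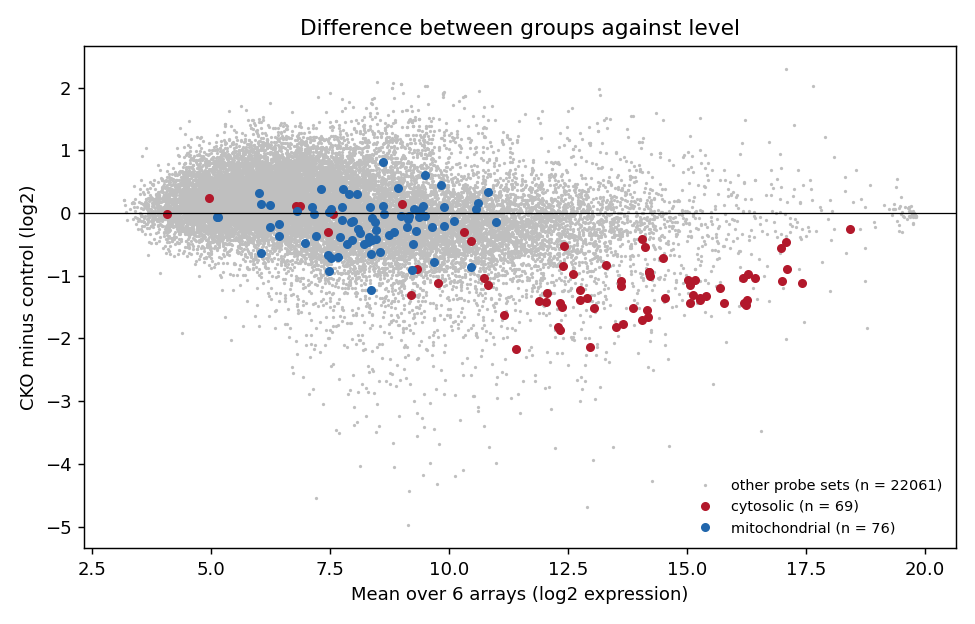
Log2 difference between CKO and control (vertical axis) against the mean over 6 arrays (log2, horizontal axis) for 69 cytosolic genes (red), 76 mitochondrial genes (blue) and all other probe sets (grey). Cytosolic genes with means of 12 or more lie between -2.14 and -0.26, below most grey points of that level, whose median with them included is -0.17.

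Among proteins of the ribosomal stalk, which recruits translation factors to the large subunit, Rplp0 showed the lowest difference of all members. Rplp0 was at 12.74, 11.95 and 12.80 in controls and at 11.28, 9.56 and 10.15 in CKO, here and for the genes that follow in the order of the replicate numbers. The groups did not overlap, and the difference was -2.17 (SE 0.47, limma adjusted p = 0.159). Rplp1, its partner in the stalk, was at 16.98, 16.87 and 16.89 in controls and at 16.86, 14.75 and 14.83 in CKO. CKO replicate 1 lay beside the controls here, so the difference of -1.43 (adjusted p = 0.434) came from CKO replicates 2 and 3.

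Rpl5 and Rpl11 bind the smallest ribosomal RNA of the large subunit and together restrain Mdm2 when ribosome assembly fails. Rpl5 was at 16.08, 15.75 and 15.52 in controls and at 14.83, 14.32 and 13.90 in CKO, a difference of -1.43 (adjusted p = 0.176). Rpl11 was at 16.09, 15.90 and 15.87 in controls and at 15.49, 13.82 and 14.42 in CKO, a difference of -1.38 (adjusted p = 0.320). Neither gene had overlapping groups. Rpl38, a small large-subunit protein whose start window above carries a tract, had the widest range of the Rpl genes (3.51). It was at 14.91, 13.96 and 14.37 in controls and at 13.97, 11.40 and 12.40 in CKO, with CKO replicate 1 just above control replicate 2, so that the groups overlapped (difference -1.82, adjusted p = 0.363).

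Small-subunit genes gave the smallest p-values of all members. Rps13 was at 12.81, 12.70 and 12.72 in controls and at 11.61, 11.14 and 11.23 in CKO, a difference of -1.42 (95% interval -2.02 to -0.81, adjusted p = 0.121). Rps15a was at 14.00, 13.55 and 13.84 in controls and at 12.64, 12.18 and 12 in CKO, a difference of -1.52 (-2.19 to -0.86, adjusted p = 0.121). For both genes all 3 CKO arrays stood apart from the controls by more than the spread within either group. Rps9, which sits near the messenger RNA entry of the small subunit, was at 14.30, 13.84 and 13.95 in controls and at 12.95, 11.23 and 11.49 in CKO. Its difference of -2.14 (adjusted p = 0.152) and range of 3.07 were the largest among the Rps genes.

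Rps6 is the substrate of S6 kinases, and its phosphorylation, which arrays do not measure, is a common readout of mTORC1 activity. Rps6 was at 17.81, 17.38 and 17.48 in controls and at 17.01, 16.39 and 16.59 in CKO, a difference of -0.89 (adjusted p = 0.354). Rpsa, a small-subunit protein also known as the laminin receptor, was at 13.03, 12.82 and 13.39 in controls and at 12.56, 11.93 and 11.84 in CKO, a difference of -0.97 (adjusted p = 0.350). The groups did not overlap for either gene, with CKO replicate 1 the nearest to the controls. Rps23, a protein of the decoding centre, had the narrowest range of the Rps genes (0.46). It was at 18.54, 18.53 and 18.61 in controls and at 18.51, 18.23 and 18.15 in CKO, near the top of the value range. Its difference of -0.26 became 0.74 when arrays were scaled to 1 interquartile range.

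**Figure D4:**
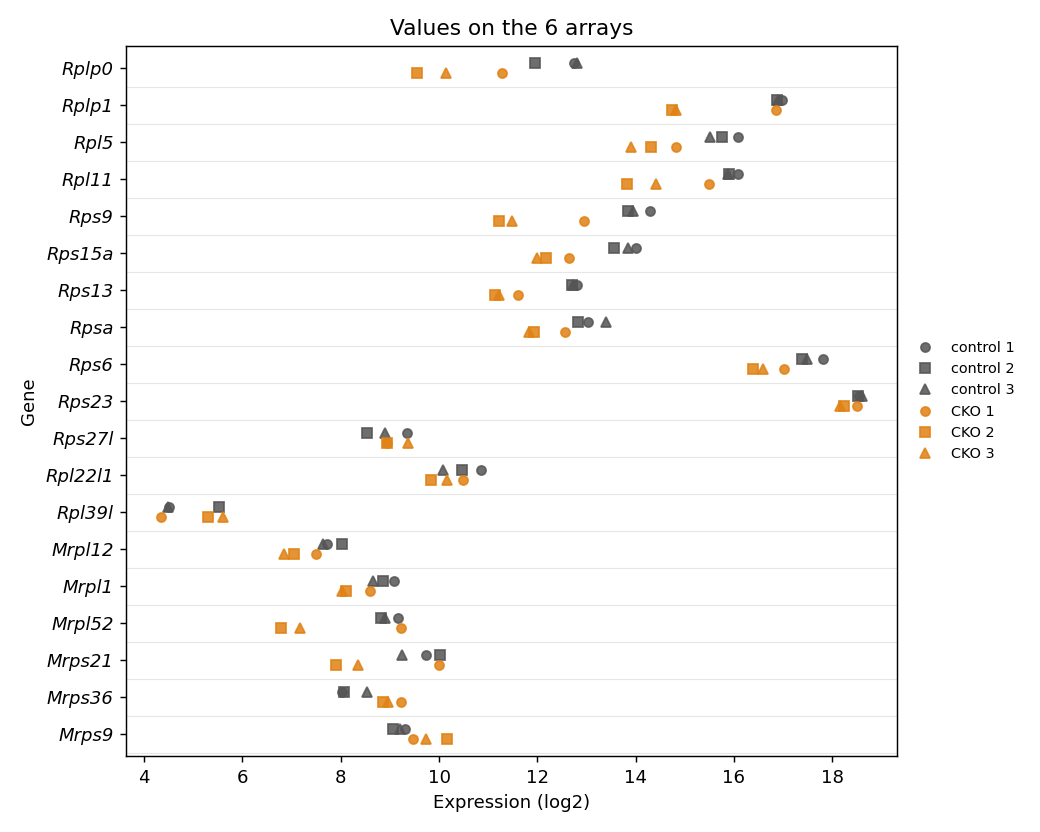
Log2 expression (horizontal axis) of 19 named ribosomal genes on each of the 6 arrays, with controls in grey, CKO in orange and the symbol giving the replicate number. Rps13 and Rps15a separate the groups on every array, Rplp1 separates CKO replicates 2 and 3 from the other 4 arrays, and Mrps36 is higher on all CKO arrays.

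Paralogs of cytosolic ribosomal proteins, several of them known for expression in testis or muscle, are given beside their main copies. Rpl39 was at 13.29 to 13.91 in controls and 11.94 to 12.81 in CKO, a difference of -1.35, whereas Rpl39l, at 4.35 to 5.61 over all arrays, differed by 0.24. Rpl3 was at 15.78 to 16.18 in controls and 13.82 to 15.50 in CKO (-1.35), and its muscle paralog Rpl3l, at 3.75 to 4.25 over all arrays, differed by -0.01. Rpl39l and Rpl3l lay near the bottom of the value range, with little room for a lower value. Rpl10l, best known from testis, was at 6.58 to 7.02 over all arrays and differed by 0.12, a sign that turned to -0.05 under quantile normalization.

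Other paralogs lay at higher levels. Rpl22, a large-subunit protein, was at 14.51 to 14.90 in controls and 13.49 to 13.92 in CKO (difference -0.94, adjusted p = 0.287). Rpl22l1, which can stand in for it, was at 10.09 to 10.85 and 9.84 to 10.49, with overlapping groups and a difference of -0.30 (95% interval -1.02 to 0.42). Rpl7 was at 15.48 to 15.65 and 14.41 to 14.58 (-1.07, adjusted p = 0.185), against -0.44 (-1.23 to 0.35) for Rpl7l1, a ribosome assembly factor. Rps4x was at 13.22 to 13.63 and 11.79 to 12.59 (-1.22, adjusted p = 0.218), against -0.31 (-1.02 to 0.40) for Rps4l. The intervals of these paralogs overlapped those of their main copies, and the differences between them were not tested.

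Rpl36al was at 9.85, 9.78 and 9.90 in controls and at 8.92, 8.25 and 8.43 in CKO, a difference of -1.31 (adjusted p = 0.159), beside -1.41 (adjusted p = 0.216) for Rpl36a. These genes encode nearly the same protein, so probes may be shared in part, as they may for Rpl37rt, Rpl32l, Rps27rt and Rpl31-ps12, which differed by -1.08, -1.04, -1.62 and -0.72. Rps27l, a paralog of Rps27, was at 9.35, 8.53 and 8.90 in controls and at 8.94, 8.94 and 9.36 in CKO, a difference of 0.15 (-0.55 to 0.86). Rps19bp1 and Rps23rg1, which are not ribosomal proteins, differed by -0.01 and 0.12. Leaving out pseudogenes, paralogs with an l suffix and Rps19bp1 left 58 cytosolic genes, of which 57 were lower and 50 at an unadjusted p under 0.05, with a median of -1.25. The 58 still hold Rps23rg1, the only one of them that was not lower, and Rps27rt and Rpl37rt.

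Mitochondrial large-subunit genes were spread on both sides of 0, from -1.23 for Mrpl52 to 0.40 for Mrpl49. Mrpl52 had the widest range of the class (2.45), at 9.16, 8.81 and 8.91 in controls and at 9.23, 6.78 and 7.18 in CKO. CKO replicate 1 was the highest array and CKO replicates 2 and 3 were the lowest, so the difference of -1.23 (95% interval -2.56 to 0.10) rested on the narrow-range arrays. Mrpl12, of the stalk of the mitochondrial large subunit, was the only mitochondrial gene lower at an unadjusted p under 0.05. It was at 7.73, 8.02 and 7.64 in controls and at 7.49, 7.04 and 6.85 in CKO, a difference of -0.67 (adjusted p = 0.498).

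Mrpl1 followed, at 8.65 to 9.09 in controls and 8.02 to 8.6 in CKO, without overlap (difference -0.62, adjusted p = 0.520). The genes with higher CKO values and the smallest p were Mrpl28, Mrpl49 and Mrpl4, with differences of 0.38, 0.40 and 0.31 at adjusted p from 0.623 to 0.686. Mrpl28 was at 7.51 to 7.68 in controls and at 7.83 to 8.11 in CKO, without overlap. Mrpl36 had the narrowest range of the Mrpl genes (0.22), at 4.98 to 5.20 over all arrays, near the low end of the scale.

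Of the mitochondrial small-subunit genes, 17 were lower and 11 higher. Mrps36, now known mainly as a link between subunits of the α-ketoglutarate dehydrogenase complex and not as a part of the ribosome, was the only member higher at an unadjusted p under 0.05. It was at 8.02, 8.07 and 8.53 in controls and at 9.22, 8.86 and 8.96 in CKO, a difference of 0.81 (95% interval 0.17 to 1.44, adjusted p = 0.390), with all CKO arrays above all controls. Mrps9 was at 9.06 to 9.31 in controls and 9.48 to 10.16 in CKO, also without overlap (0.60, adjusted p = 0.529). Mrps17 was at 9.34 to 9.84 and 9.90 to 10.13, without overlap (0.45, adjusted p = 0.596).

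Lower values among Mrps genes came mostly from CKO replicates 2 and 3. Mrps30 was at 8.34, 7.86 and 7.62 in controls and at 8.51, 6.15 and 6.39 in CKO, a difference of -0.92 (adjusted p = 0.611). Mrps21 was at 9.73, 10.02 and 9.24 in controls and at 10, 7.91 and 8.36 in CKO, a difference of -0.91 (adjusted p = 0.584). With CKO replicate 1 as the only CKO array, the differences of Mrps30, Mrps21 and Mrpl52 turned to 0.57, 0.34 and 0.27. Mrps25 differed by -0.46, and Mrps18c, with the narrowest range of the Mrps genes (0.49), was at 9.19 to 9.53 in controls and 9.19 to 9.68 in CKO.

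Mitochondrial ribosomal proteins with bacterial counterparts mostly carry the lower numbers, and those gained in mitochondria the higher ones. The 43 genes numbered up to Mrpl36 and Mrps21 had a median difference of -0.17, with 32 lower. The 33 genes from Mrpl37 and Mrps22 upward had a median of -0.09, with 18 lower. Within each of these groups 1 gene had p under 0.05, lower in the first and higher in the second.

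Among cytosolic genes with a matched promoter, the 13 with a TOP tract at the annotated start differed by a median of -1.35, from -1.82 to -0.53. The 43 without it differed by a median of -1.06, from -2.17 to 0.24. The 43 include the dim paralogs, the 13 include Rpl32l and Rps27rt, and the ranges overlap. A gene whose annotated start lies a few bases off its tract counts among the 43, so this split is also tied to the annotation. Cytosolic genes with and without the ETS motif had medians of -1.04 and -1.15, and mitochondrial genes -0.14 and -0.11. For the NRF1 motif the medians were -1.02 and -1.15 in cytosolic and -0.23 and -0.08 in mitochondrial genes.

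Genes that work with the cytosolic ribosome were read against the 6.35% of all probe sets lower at an unadjusted p under 0.05 in limma's fit. Many of these genes are bright, and that share was 18% at a mean of 12 or more and 12.9% at a mean from 10 to 12. Fau, which encodes a small-subunit protein fused to a ubiquitin-like domain, was at 13.89, 13.25 and 13.78 in controls and at 12.68, 11.02 and 11.12 in CKO (difference -2.03, adjusted p = 0.176). Of 8 other listed transcripts known to begin with a TOP tract, 5 were measured. All 5 were lower and 4 at an unadjusted p under 0.05, with a median of -0.83. Vim, an intermediate filament gene of many mesenchymal and myeloid cells, differed by -2.38 (adjusted p = 0.0782), and Tpt1, a translationally controlled protein, by -1.16. Of 11 elongation and release factors 4 were lower at that p (median -0.67), including Eef1b2 (-1.68) and Eef1d (-1.12), which recharge elongation factor 1A with GTP. Eef1a1, which encodes elongation factor 1A, had a mean of 19.74, near the top of the value range, and differed by -0.16. Of 26 initiation factors 9 were lower at that p (median -0.52), including Eif3f (-2.18) and Eif3m (-1.01) of the eIF3 complex. None of these 3 lists had a gene higher at that p.

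Of 48 ribosome biogenesis genes, 40 were lower but 2 at an unadjusted p under 0.05, with a median of -0.31: Polr1c, a subunit of RNA polymerases I and III, at -0.69, and Eif6, which keeps the subunits apart, at -0.84. Of 14 genes of the mTORC1 pathway and of TOP regulation, 0 had that p in limma's fit, 12 were lower and the median was -0.32. On CKO replicate 1 the biogenesis and mTORC1 medians stood at -0.05 and 0.15 from the control mean, against -0.55 for the cytosolic ribosomal genes. The elongation and initiation lists stood at -0.17 and -0.05 on that array and at -0.72 and -0.74 on the narrow-range CKO replicates 2 and 3, and the other TOP transcripts at -0.56 and -1.01.

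Of 4 further mitochondrial ribosome components all were lower and 0 at that p (limma, median -0.43). Of 12 mitochondrial translation factors 1 was lower at that p, Guf1, a ribosome-bound GTPase, at -0.82 (list median -0.31). Of 25 assembly factors 1 was lower and 1 higher at that p (list median -0.14). Of all probe sets, 6.35% were lower and 3.55% higher at that p, and 9.97% and 2.93% at a mean from 8 to 10. In lists of this size, counts of 1 are near those shares. Noa1, a GTPase of the small-subunit pathway, differed by -1.13, and Ngrn, which binds the large ribosomal RNA, by 0.86. No gene of these lists passed the adjusted threshold.

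The cytosolic result held its direction in every setting tried, with a median difference from -0.55 to -1.49. With CKO replicates 2 and 3 left out the median was -0.55, 62 genes were lower and 12 at an unadjusted p under 0.05, against 4.88% of all probe sets, and the lone CKO array is assumed there to vary like the controls. With arrays scaled to 1 interquartile range it was -0.69 and 33 genes, against 6.45% of all probe sets. With array weights 53 cytosolic and 3 mitochondrial genes passed the adjusted threshold, among 1694 of all 22206 probe sets (1057 lower, 637 higher). The cytosolic median there was -1.40, close to the -1.49 without CKO replicate 1, where only the narrow-range arrays stand for CKO. Median centring moved the median of all probe sets from 0.06 to -0.06, and 63 mitochondrial genes were then lower. Without CKO replicate 1, 51 cytosolic and 6 mitochondrial genes passed the adjusted threshold, as did 1096 lower and 1113 higher probe sets in all, and in that setting the group and the narrow range cannot be told apart.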

How the data were processed

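The deposited log2 values, 1 per probe set and array, were made by the authors with RMA, per the submitters' processing notes (version, settings and build: not given in the sources used here). Values themselves show the log2 scale. Of 22206 probe sets, 19572 named 1 gene, 0 several and 2634 none. All 145 members matched the mouse gene table by Entrez number, and 0 columns of sample values were unassigned. limma 3.58.1 in R 4.3.3 (lmFit, eBayes, CKO minus control, no covariate, two-sided) was fitted to all probe sets, with Benjamini-Hochberg adjustment at 0.05, and was tested on simulated data. Members and lists were chosen with earlier results of these data known, so counts and medians over them are descriptions.

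Named genes were, per class, the 3 with the smallest p in each direction, those with the widest and narrowest range, fixed stalk, assembly and paralog genes, and, per pathway list, up to 2 per direction, printed at an unadjusted p under 0.05. Others were chosen after their values were seen: Rps19bp1, Rpl37rt, Rpl32l, Rps27rt, Rpl31-ps12, Eef1a1, Jchain, Cd22, and Rpl35, Rps10 and Rpl15 for their start windows. Alternatives covered normalization, centring, scale, a filter on dim probe sets, the variance model, array weights, the replicate block, left-out arrays, probe set averaging and the member list.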

Additional observations from a re-analysis of the deposited data

How the results depend on the processing

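With arrays scaled to 1 interquartile range, 33 cytosolic genes were lower at an unadjusted p under 0.05 and the cytosolic median minus the mitochondrial one was -0.54. With CKO replicates 2 and 3 left out, 12 were lower, the cytosolic median was -0.55 and the mitochondrial one 0.14. Mitochondrial genes lower at that p numbered 4 under quantile normalization, 3 under median centring, 3 with scaled arrays, 0 with trend and robust, 15 with array weights (14.2% of all probe sets were lower at that p), 0 without CKO replicates 2 and 3 and from 0 to 15 with each array left out, the 15 without CKO replicate 1 (13.6% of all). Those higher numbered 2 under cyclic loess, 2 with array weights and from 0 to 2 with each array left out. Probe sets called numbered 1 under quantile normalization, 1 without the dimmest 20%, 4 with trend and robust, 1694 with array weights, 0 without CKO replicates 2 and 3, 44 at an adjusted p under 0.1, and from 0 (without control replicate 1 or 3, or CKO replicate 3) to 2209 (without CKO replicate 1), with 125 without control replicate 2. The cause was not tested. Each gene had 1 probe set, so averaging gave the same values.

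With the replicate block, 0 probe sets were called and 3 mitochondrial genes were lower at that p. Deviations of same-numbered arrays correlated at -0.00548, -0.23 and 0.254, and not every array correlated best with its own number. With 3 arrays per group these values cannot tell whether the numbers pair the samples.

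Of 777 values of 52 named genes under 15 settings, 693 kept direction and side of the threshold, 60 newly passed it (29 with array weights, 30 without CKO replicate 1, 1 without control replicate 2) and 24 reversed. Reversed without CKO replicates 2 and 3 were Mrpl36 (0.03), Mrpl52 (0.27), Mrps18c (-0.13), Mrps21 (0.34), Mrps30 (0.57), Rpl22l1 (0.02), Rpl39l (-0.49), Rpl7l1 (0.25) and Rps23rg1 (-0.47). Rpl10l was -0.05 under quantile normalization, -0.04 under cyclic loess and -0.05 with scaled arrays, Rps23rg1 -0.02 under cyclic loess, Mrps18c -0.09 under median centring, Rpl39l -0.06 and Rps23 0.74 with scaled arrays, and Rpl3l 0.12 with array weights. With 1 array left out, Mrps18c ran from -0.13 to 0.13, Rpl39l from -0.02 to 0.61, Rpl3l from -0.11 to 0.14, Rps23rg1 from -0.18 to 0.42 and Rps27l from -0.05 to 0.37.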
